A study of Danio rerio with 6 samples.

Results

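The Fos, Jun and Egr early response transcription factors were examined in zebrafish melanoma cells. The members were chosen by name, as the rows of the count table named fosab, fosb, fosl1a, fosl2, jun, junba, junbb, jund, egr1 and egr2b. Of these 10 names, 9 had a row among the 27126 gene names of the table, and 8 passed the filter on low counts. The name fosab had no row and was left out. A row named fos, which RefSeq lists as a synonym of fosab, is described beside the members and is not counted among them.

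ZMELR1 cells were obtained from ZMEL1 melanoma cells under a BRAF inhibitor, and the 3 ZMELR1 libraries came from cells kept in PLX4032 (vemurafenib) at 1 μM. ZMEL1 is the parental line, grown from 1 melanoma of a fish, and its 3 libraries came from cells kept in DMSO. Both lines carry oncogenic BRAF under the mitfa promoter, the p53-/- and mitfa-/- alleles and a rescue cassette with an mitfa minigene, and the medium held 10% serum at 28.5 °C for both. Cells were trypsinized before RNA was isolated. Each line is 1 culture lineage, and the drug in the medium and the history of selection cannot be told apart. The total count was 42591832 to 83741911 in ZMELR1 and 62973267 to 67904002 in ZMEL1, with the lowest in ZMELR1 replicate 3. All levels are CPM, the count of a gene relative to the size of its library, with TMM scaling for differences in RNA composition. Intervals and ratios of a few counts cover counting error only.

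Proteins of the Fos and Jun families carry a basic region and a leucine zipper, and bind DNA in pairs as the factor AP-1. A Jun protein can pair with another Jun protein or with a Fos protein, while Fos proteins need a Jun partner. Egr proteins are zinc finger factors of a separate family. In mammals most of these genes are immediate early genes: growth factors acting through ERK kinases, and many stresses acting through JNK and p38 kinases, switch them on without new protein synthesis, and their transcripts are short-lived. BRAF acts upstream of ERK, and FOSL1 and EGR1 are known ERK-dependent genes in human melanoma cells. In bulk RNA, more transcript per cell and more cells with the transcript cannot be told apart.

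ZMELR1 replicate 3 stood apart in other genes too. All 40 replication and mitosis genes tested were lowest in it, as were 25.8% of all genes, with a summed level of 3345, 4086 and 1229 CPM in ZMELR1 replicates 1, 2 and 3, against 5639, 5762 and 4523 CPM in ZMEL1. Of 25 heat shock genes tested, 8 were at least 2-fold higher in it than in any other library, as were 2.77% of all genes. The summed level of the 26 heat shock rows was 13885, 14354 and 19564 CPM in ZMELR1 replicates 1, 2 and 3. In ZMEL1 it was 19833, 19955 and 16365 CPM, so the sum in ZMELR1 replicate 3 was not above that of ZMEL1 replicates 1 and 2. A sum weighs abundant genes most. The median over these rows of log2 CPM minus the gene's mean was 0.48 in ZMELR1 replicate 3. It was between -0.28 and 0.09 in the other libraries. The part of these differences in the levels of the Fos, Jun and Egr genes was not tested.

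No member passed the test between the lines, and 1 library stood far above the other 5 in most of them. In ZMELR1 replicate 3 jun, junba, junbb, egr1 and fosl1a were 9.41 to 19.0 times as high as in the lowest ZMELR1 library. ZMELR1 replicates 1 and 2 lay within or below the range of the ZMEL1 libraries in these genes. For junba both lay below it. Of the 8 members tested, 0 passed edgeR's quasi-likelihood test at an adjusted p under 0.05, where 6.29% of all 16589 genes tested passed. At an unadjusted p under 0.05 the number was also 0 of 8, where 24.3% of all genes were, and limma-voom and DESeq2 called 0. The CPM of the lines overlapped in all 8, where 31.4% of genes did not overlap and 17% were higher in every ZMELR1 library. DESeq2 gave no p to jun, junba, junbb and egr1, nor to the fos row, because a single count was extreme. It did so for 46 of 24317 genes with a count, or 0.189%.

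Among the Fos genes, the fos row had 4.72, 5.04 and 116 CPM in ZMELR1 replicates 1, 2 and 3, against 2.51, 4.0 and 10.3 CPM in ZMEL1 replicates 1, 2 and 3. The product is the first-described partner of Jun in AP-1. ZMELR1 replicate 3 was 11.3 times as high as the next library, ZMEL1 replicate 3, and the lines overlapped. The log2 fold change was 2.90 (standard error 1.30, edgeR adjusted p = 0.222), with a 95% interval from -0.14 to 5.94.

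The gene fosl1a encodes the Fos-related factor Fra-1. Its level was 11.8, 16.4 and 113 CPM in ZMELR1 replicates 1, 2 and 3, against 13.5, 29.5 and 45.0 CPM in ZMEL1 replicates 1, 2 and 3. Replicate 3 was the highest library of each line, and ZMELR1 replicate 1 was the lowest of all. The log2 fold change was 0.68 (standard error 0.861, edgeR adjusted p = 0.663), with a 95% interval from -1.34 to 2.70.

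The other Fos genes varied less. The gene fosl2, which encodes Fra-2, had 18.8, 20.0 and 39.5 CPM in ZMELR1 replicates 1, 2 and 3, against 15.5, 22.0 and 18.6 CPM in ZMEL1. ZMELR1 replicate 3 was 1.79 times as high as the next library, and the lines overlapped. Its log2 fold change was 0.48 (standard error 0.318, edgeR adjusted p = 0.392). The gene fosb had 2.29, 3.08 and 3.49 CPM in ZMELR1 and 1.55, 2.64 and 2.42 CPM in ZMEL1, and no library stood apart. Its log2 fold change was 0.42 (standard error 0.310, edgeR adjusted p = 0.441), with a 95% interval from -0.31 to 1.15.

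Of the Jun genes, jun itself had 23.5, 19.4 and 281 CPM in ZMELR1 replicates 1, 2 and 3, against 20.9, 30.2 and 50.4 CPM in ZMEL1 replicates 1, 2 and 3. Its product can form AP-1 alone or with Fos proteins, and is a factor that JNK kinases phosphorylate. ZMELR1 replicate 3 was 5.57 times as high as the next library, while ZMELR1 replicate 2 was the lowest of the 6. The mean was 108 ± 150 CPM in ZMELR1 and 33.8 ± 15.1 CPM in ZMEL1 (SD, n = 3 each), and the log2 fold change was 1.67 (standard error 1.00, edgeR adjusted p = 0.345), with a 95% interval from -0.68 to 4.02.

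The genes junba and junbb are the zebrafish copies of mammalian JUNB, a Jun protein that can restrain c-Jun in mammals. The level of junba was 9.26, 10.2 and 175 CPM in ZMELR1 replicates 1, 2 and 3, against 12.9, 17.3 and 26.4 CPM in ZMEL1. The highest library was ZMELR1 replicate 3, while ZMELR1 replicates 1 and 2 lay below all 3 ZMEL1 libraries. The level of junbb was 102, 86.9 and 818 CPM in ZMELR1, against 121, 101 and 219 CPM in ZMEL1. Both copies were highest in replicate 3 of each line. Their log2 fold changes were 1.78 for junba (standard error 1.09, edgeR adjusted p = 0.356) and 1.19 for junbb (standard error 0.850, edgeR adjusted p = 0.425).

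The gene jund encodes the Jun protein that, in mammals, is made at a steadier level than the others. It had 42.4, 44.4 and 134 CPM in ZMELR1 replicates 1, 2 and 3, against 35.3, 40.4 and 43.9 CPM in ZMEL1. The 3 ZMEL1 libraries were within 1.24 times of each other, while the ZMELR1 libraries spanned 3.15 times. The log2 fold change was 0.88 (standard error 0.443, edgeR adjusted p = 0.268), with a 95% interval from -0.16 to 1.92.

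Of the Egr genes, egr1 had 49.9, 69.4 and 621 CPM in ZMELR1 replicates 1, 2 and 3, against 42.8, 60.8 and 186 CPM in ZMEL1 replicates 1, 2 and 3. In both lines replicate 3 was highest and replicate 1 was lowest, and the lines overlapped. The log2 fold change was 1.36 (standard error 1.01, edgeR adjusted p = 0.443), with a 95% interval from -1.01 to 3.72.

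The gene egr2b, also called krox20 and known for its role in the hindbrain and in Schwann cells, was nearly silent. It had 2, 3 and 4 counts in ZMELR1 replicates 1, 2 and 3, against 11, 8 and 11 counts in ZMEL1, and was removed by the filter on low counts. The lines did not overlap, as in 14.5% of the genes tested, which were lower in every ZMELR1 library. The summed counts of 9 in ZMELR1 and 30 in ZMEL1 gave a ratio per total of 0.314 (95% interval of the counting error 0.131 to 0.679). In the fit on all 24317 genes with a count, its edgeR adjusted p was 0.160. It was the only member lower in ZMELR1 replicate 3 than in ZMEL1 replicate 3.

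**Figure D1:**
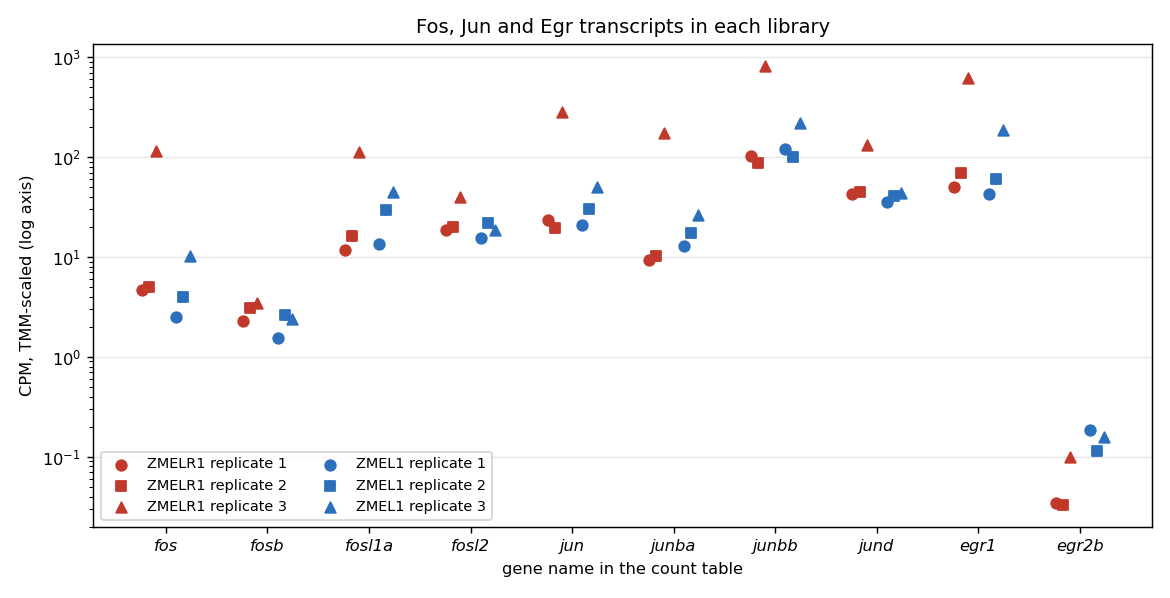
CPM after TMM scaling (log axis) of the fos row and of the 9 members in each library, with ZMELR1 in red left of ZMEL1 in blue and a marker for each replicate number. ZMELR1 replicate 3 is the highest library in every gene but egr2b, with 281 CPM for jun against 50.4 CPM in the next highest library.

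The same pattern was seen with the libraries set side by side by replicate number. Deviations from the line mean were correlated between libraries of the same number across all genes tested, at 0.509 to 0.588. The labels do not say what libraries of the same number share. At number 1 the difference in log2 CPM between ZMELR1 and ZMEL1 was between -0.48 and 0.56 over the 8 members tested, and 5 were higher. At number 2 it was between -0.85 and 0.22, and 3 were higher. At number 3 all 8 were higher, by 0.53 to 2.73, and 7 by at least 1, where 10.3% of all genes tested were. The median over the members was 0.19, -0.18 and 1.67 at numbers 1, 2 and 3, beside 0.05, 0.01 and -0.01 over all genes tested. With the replicate number as a block in edgeR, 0 of the 8 members passed, where 24.9% of all genes did. Their adjusted p was 0.154 to 0.891.

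Most of the log2 fold changes over all 6 libraries rested on 1 library, while that of fosb changed little without it. Without ZMELR1 replicate 3, the log2 fold changes of jun, junba, junbb, fosl1a and egr1 were -0.66, -0.95, -0.63, -1.06 and -0.69, and that of the fos row was -0.20, against 1.67, 1.78, 1.19, 0.68, 1.36 and 2.90 with it. Those of fosb, fosl2 and jund were 0.29, 0.06 and 0.12, and the edgeR adjusted p of the 8 members was 0.133 to 0.899. Without replicate 3 of both lines, jun, junba, junbb and fosl1a were at -0.29, -0.67, -0.27 and -0.65, and egr1, fosb, fosl2 and jund at 0.16, 0.32, 0.01 and 0.16 (edgeR adjusted p 0.144 to 0.983), with 0 of 8 called where 5.93% of genes were. With replicate 3 of both lines left out and the number as a block, a fit chosen after seeing the data, junba, fosl1a and junbb were lower in ZMELR1 (edgeR adjusted p = 0.000760, 0.00522 and 0.0174) and the fos row was higher (0.0213). This fit called 50% of all 16669 genes tested, made up of 26.3% lower and 23.6% higher in ZMELR1, and 3 of 8 members is to be read against these shares.

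**Figure D2:**
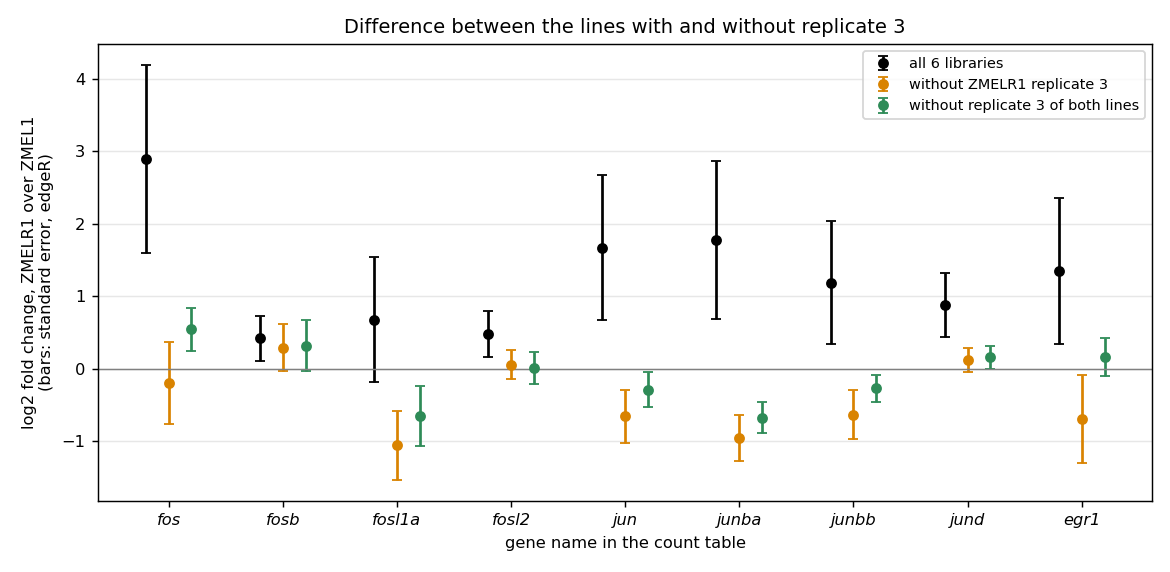
Log2 fold change of ZMELR1 over ZMEL1 in edgeR, with a standard error derived from its F statistic. Fits are with all 6 libraries (black), without ZMELR1 replicate 3 (orange) and without replicate 3 of both lines (green). For junba the value is 1.78 with all libraries and -0.95 and -0.67 in the other fits, while fosb stays between 0.29 and 0.42.

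The height of ZMELR1 replicate 3 was compared with that of all genes tested, as a description. It was the highest of the 6 libraries in all 8 members tested, as in 27.3% of all genes. It lay at least 2-fold above the next highest library in 6 of the 8 members, as in 2.77% of all genes tested and 1.78% of the 10891 genes whose log2 CPM averaged 2 or more. The 2 members below that line were fosl2 at 1.79 times and fosb at 1.13 times. A lead as large as that of junba, 6.64 times, was found in 0.133% of the genes tested, and one as large as that of the fos row in 0.0603%. In ZMEL1 the spread was narrower: the highest library was at least 2-fold above the lowest in 5 of 8 members, as in 23.6% of all genes, against 7 of 8 members in ZMELR1, as in 29% of all genes. In 5 of 8 members the ZMELR1 libraries spanned at least 4-fold, as in 7.88% of all genes. Any 1 of the 6 libraries was 2-fold above the next in 4.66% of all genes. Replicate 3 was the highest library of both lines in 6 of 8 members, as in 21.2% of all genes.

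**Figure D3:**
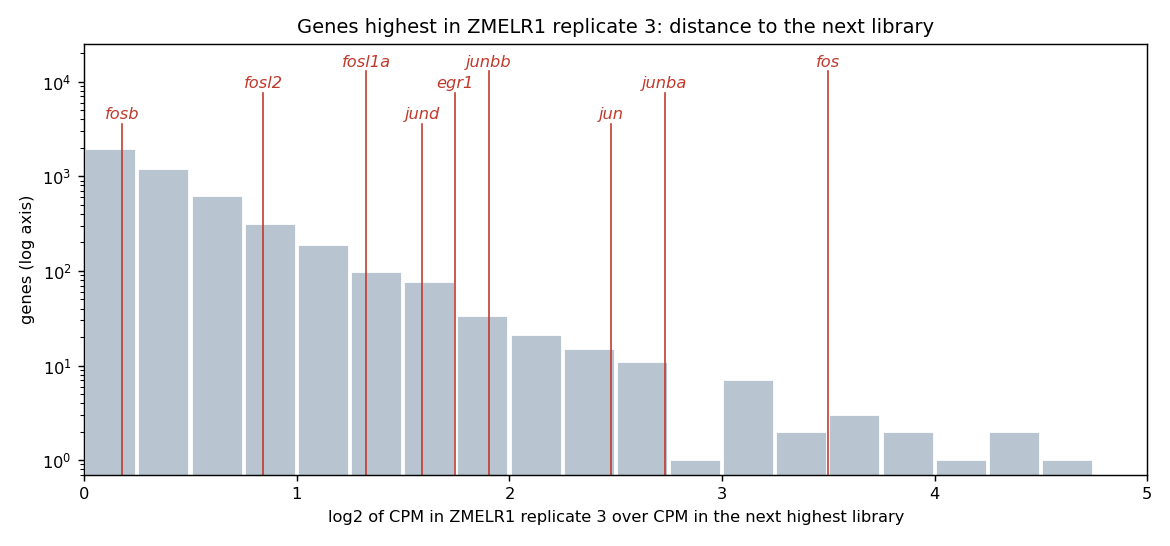
Number of genes tested (log axis) by the log2 ratio of the CPM in ZMELR1 replicate 3 to that in the next highest library, for genes highest in ZMELR1 replicate 3. Red lines mark the 8 members tested and the fos row, which runs furthest at 11.3 times, while fosb at 1.13 times lies in the tallest bar.

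The members did not move by a common factor. The ratio of 2 counts in the same library does not depend on the scaling. The count of junba was 0.218, 0.230 and 1.31 times that of jund in ZMELR1 replicates 1, 2 and 3, against 0.365, 0.428 and 0.602 times in ZMEL1. The count of the fos row was 0.251, 0.252 and 2.95 times that of fosl2 in ZMELR1, against 0.162, 0.182 and 0.553 times in ZMEL1. The count of fosb over that of fosl2 moved little, at 0.122, 0.154 and 0.0884 in ZMELR1 and 0.0998, 0.120 and 0.130 in ZMEL1. ZMELR1 replicate 3 was thus the highest of the 6 libraries in the first pair of ratios and the lowest in the last. In both lines replicate 3 had the highest count of egr1 relative to jund, 4.65 in ZMELR1 and 4.23 in ZMEL1, against 1.18 to 1.56 in ZMELR1 replicates 1 and 2 and 1.21 to 1.5 in ZMEL1 replicates 1 and 2.

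Over the 6 libraries the log2 CPM of the fos row and the 8 members tested correlated with each other at a median r of 0.920 over 36 pairs (0.462 to 0.990). Over the 5 libraries without ZMELR1 replicate 3 the median was 0.625 (-0.29 to 0.945). These values describe few libraries, which differ in depth and whose deviations correlated by replicate number. By the same measure over 6 libraries, the genes with the pattern most like that of jun were apaf1, TMEM87A and VPS37C (r = 0.998, 0.997 and 0.994). For junbb they were ppp1r13l, brd2a and ccdc22 (r = 0.998, 0.996 and 0.994), and for egr1 slc2a8, osbpl11 and zc3h7a (r = 0.999, 0.994 and 0.993). With so few libraries, and with ZMELR1 replicate 3 far above the others in these 3 members, 1.02% to 1.17% of the 9469 genes compared had an r over 0.95.

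Other immediate early genes were partly high in the same library and partly higher in ZMELR1 as a line. Of 55 genes of a list of Egr corepressors and other immediate early genes tested, 7 rose in ZMELR1, 0 fell and 48 missed the threshold, with 18 higher and 2 lower with the block (median log2 fold change 0.45, against 0.02 over all genes, of which 3.62% rose and 2.68% fell). Of all genes, 12.9% were higher and 12% lower with the block. Over the fits without 1 library, 0 to 8 rose. Without replicate 3 of both lines, 3 rose and 3 fell, where 5.93% of all genes passed. With the block added to that fit 22 were higher and 16 lower, where 23.6% and 26.3% of all genes were. The nuclear receptor gene nr4a2b had 68.9, 35.2 and 149 CPM in ZMELR1 replicates 1, 2 and 3, against 13.1, 7.16 and 12.5 CPM in ZMEL1, so the lines did not overlap. Its log2 fold change was 2.95 (standard error 0.537, edgeR adjusted p = 0.0243). The gene did not pass without ZMELR1 replicate 1 and without each ZMEL1 replicate (edgeR adjusted p = 0.0611, 0.0856, 0.0896 and 0.0837).

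The growth factor gene hbegfb, the kinase gene SIK1 and the mRNA decay factor gene zfp36l1b also rose (edgeR adjusted p = 0.0238, 0.0274 and 0.0284), at 3.32, 1.46 and 0.86 on the log2 scale. For hbegfb the call was lost without ZMELR1 replicate 1 and ZMEL1 replicates 2 and 3, for SIK1 without ZMELR1 replicate 1 and each ZMEL1 replicate, and for zfp36l1b without every library but ZMELR1 replicate 3 (edgeR adjusted p up to 0.0907, 0.114 and 0.112). Where 2.77% of all genes tested were at least 2-fold higher in ZMELR1 replicate 3 than in any other library, 12 of 55 genes in this list were. Among them, named after their values were seen, the early gene IER2 had 5.51, 5.60 and 65.7 CPM in ZMELR1 replicates 1, 2 and 3 and 3.06, 3.54 and 14 CPM in ZMEL1, and passed only with the block (edgeR adjusted p = 0.0441). The cytokine inhibitor gene socs3a had 83.3, 76.0 and 764 CPM in ZMELR1 and 69.9, 58.5 and 68.9 CPM in ZMEL1. Unlike IER2, socs3a was not raised in ZMEL1 replicate 3. Of the Fos, Jun and Egr genes outside the members, egr2a and egr3 were tested, and neither passed (edgeR; 0 of 2 at an unadjusted p under 0.05, 0 with the block). The gene egr2a had 0.428, 0.650 and 8.76 CPM in ZMELR1 and 0.612, 1.2 and 1.44 CPM in ZMEL1. For egr3 the levels were 0.222, 0.297 and 1.24 CPM in ZMELR1 and 0.561, 0.915 and 0.114 CPM in ZMEL1. ZMELR1 replicate 3 was thus 1.35 times as high as the next library in egr3, and ZMEL1 replicate 3 was the lowest of the 6.

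Genes of partners and regulators were counted in the same way, beside 6.29% of all genes called and 24.9% called with the block. Of 16 leucine zipper genes whose products pair with or compete with AP-1, bach2b rose (1.62 on the log2 scale, edgeR adjusted p = 0.0121), batf3 fell by 2.13 on the log2 scale (edgeR adjusted p = 0.0303) and the other 14 missed the threshold, with 5 higher and 2 lower with the block. The call of bach2b was lost without ZMELR1 replicate 1 and ZMEL1 replicates 1 and 2 (edgeR adjusted p = 0.0619, 0.0599 and 0.0507). That of batf3 held only without ZMEL1 replicate 2 (edgeR adjusted p up to 0.119 without the others). The gene batf3 was scarce, at 13, 26 and 7 counts in ZMELR1 replicates 1, 2 and 3, against 86, 46 and 71 counts in ZMEL1. The stress-induced gene atf3, named after its values were seen, had 18.5, 30.7 and 112 CPM in ZMELR1 replicates 1, 2 and 3, against 28.4, 42.5 and 23.6 CPM in ZMEL1, and was high in ZMELR1 replicate 3 alone.

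The serum response factor SRF and its ternary complex partners carry the ERK signal to the promoters of many early genes. Of 9 genes tested in a list of SRF and its cofactors, MYOCD rose (log2 fold change 2.28, edgeR adjusted p = 0.0416). It encodes an SRF cofactor that is not a ternary complex factor. In this list 0 fell and 8 missed the threshold, with 3 higher and 1 lower with the block. MYOCD was scarce, at 0.188, 0.330 and 0.396 CPM in ZMELR1 and 0.0680, 0.0857 and 0.0286 CPM in ZMEL1, and its call was lost without any 1 of the 6 libraries (edgeR adjusted p 0.0636 to 0.134). Of 15 CREB family genes and cofactors, crtc3 rose (log2 fold change 1.17, edgeR adjusted p = 0.0470), 0 fell and 14 missed the threshold, with 4 higher and 0 lower with the block. Of the 6 libraries, only ZMELR1 replicate 3 could be left out without losing the call of crtc3 (up to 0.162 as edgeR adjusted p without another).

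Of 26 genes for ERK, JNK and p38 kinases and those above them, 0 passed in edgeR, with 8 at an unadjusted p under 0.05, where 24.3% of all genes were. With the block 7 were higher and 0 lower, where 12.9% and 12% of all genes were. Of 26 ERK feedback and output genes tested, 0 rose, the phosphatase gene dusp14 fell by 3.34 on the log2 scale (edgeR adjusted p = 0.00550) and 25 missed the threshold, with 3 higher and 4 lower with the block. The gene dusp14 was scarce in both lines, at 0.0513, 0.0881 and 0.0248 CPM in ZMELR1 and 0.663, 0.629 and 0.629 CPM in ZMEL1. The feedback phosphatase gene dusp6, named after its values were seen, did not follow the members: it had 1064, 875 and 633 CPM in ZMELR1 replicates 1, 2 and 3, against 868, 865 and 637 CPM in ZMEL1. It was lowest in the pair of libraries where jun and egr1 were highest. The feedback phosphatase gene dusp1, named in the same way, had 25.2, 23.1 and 94.5 CPM in ZMELR1 and 32.2, 36.8 and 34.6 CPM in ZMEL1.

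Genes known as AP-1 targets in mammals did not move as a block. Of 23 tested, 2 rose, 3 fell and 18 missed the threshold, where 3.62% of all genes rose and 2.68% fell. With the replicate block 3 were higher and 6 lower, where 12.9% and 12% of all genes were. In edgeR 11 of 23 had an unadjusted p under 0.05, where 24.3% of all genes did. The lines did not overlap in 11 of 23, where 31.4% of all genes did not. The median log2 fold change of the list was -0.62. Over the fits without 1 library, 1 to 2 rose and 0 to 7 fell. The intermediate filament gene vim had 26.3, 20.2 and 33.1 CPM in ZMELR1, against 4.6, 2.87 and 1.86 CPM in ZMEL1, without overlap (log2 fold change 3.09, edgeR adjusted p = 0.00605). The protease inhibitor gene serpine2 rose by 1.83 on the log2 scale (edgeR adjusted p = 0.0291), a call lost without ZMELR1 replicate 1 and each ZMEL1 replicate (edgeR adjusted p up to 0.111). The protease gene mmp9 had 1.98, 2.25 and 9.95 CPM in ZMELR1, against 35.1, 33.4 and 50.2 CPM in ZMEL1, a fall by 3.08 on the log2 scale (edgeR adjusted p = 0.0383). Every ZMELR1 library was below every ZMEL1 library. Within each line mmp9 was highest in replicate 3, as were the fos row, jun and fosl1a. A link between mmp9 and these factors was not tested. Leaving out any library but ZMELR1 replicate 3 ended the call (up to 0.101 as edgeR adjusted p). The growth factor gene tgfb1b and the heme oxygenase gene hmox1a fell by 1.17 and 1.77 on the log2 scale (edgeR adjusted p = 0.0270 and 0.0444), and both calls were lost without each of 4 libraries (edgeR adjusted p up to 0.0974 and 0.155). For tgfb1b these were ZMELR1 replicates 1 and 2 and ZMEL1 replicates 1 and 3, and for hmox1a replicates 1 and 2 of both lines.

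**Figure D4:**
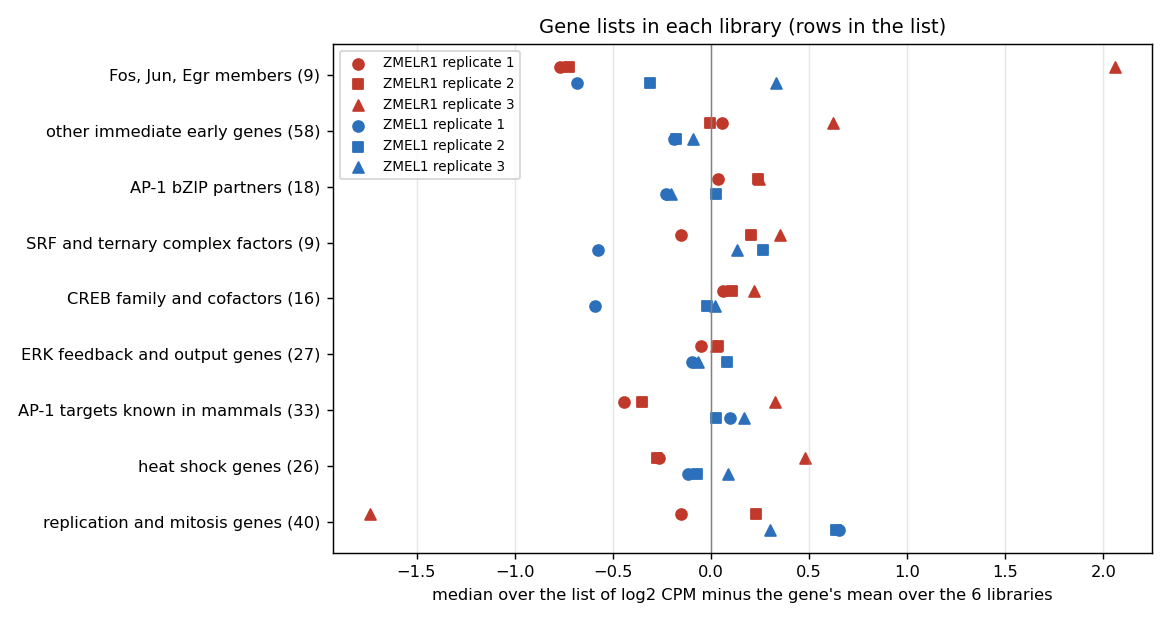
Median over each gene list of the log2 CPM minus the gene's mean over the 6 libraries, with ZMELR1 in red, ZMEL1 in blue and a marker for each replicate number. The members lie at 2.06 in ZMELR1 replicate 3 and between -0.77 and 0.33 in the other libraries, while replication and mitosis genes lie at -1.74 in ZMELR1 replicate 3.

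The heat shock gene hsp70l, named after its values were seen, had 1.87, 2.14 and 335 CPM in ZMELR1 replicates 1, 2 and 3, against 2.34, 5.89 and 16.1 CPM in ZMEL1. As with jun and egr1, replicate 3 was the highest library of each line. Of the 25 heat shock genes tested, 0 passed in edgeR (5 at an unadjusted p under 0.05, where 24.3% of all genes were), with 1 higher and 4 lower with the block, and 12 were highest in replicate 3 of both lines. Of the 40 replication and mitosis genes, 0 passed in edgeR (9 at an unadjusted p under 0.05, again where 24.3% of all genes were), with 0 higher and 16 lower with the block, where 12% of all genes were lower.

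Levels of the melanocyte and neural crest markers differed between genes, and 11 of the 15 rows passed the filter on low counts. The gene kita had 163 to 253 CPM in ZMELR1 and 85.0 to 116 CPM in ZMEL1. By contrast slc24a5 had 1.76 to 7.17 CPM in ZMELR1 and 0.229 to 0.391 CPM in ZMEL1. For oca2 the levels were 0.804 to 0.990 CPM in ZMELR1 and 2.89 to 7.35 CPM in ZMEL1. The mitfa row had 832 to 949 CPM in ZMELR1 and 429 to 592 CPM in ZMEL1. The mitfa row may hold reads of the minigene in the rescue cassette, which these counts cannot tell from the fish's own gene. Of all genes tested, 3.62% rose and 2.68% fell, with 12.9% higher and 12% lower with the block. Of 11 melanocyte and neural crest markers tested, slc24a5, kita, tyrp1b and tfap2e rose, oca2 fell and 6 missed the threshold. With the block 9 were higher and 1 lower. In edgeR 10 of these 11 had an unadjusted p under 0.05, where 24.3% of all genes did. Over the fits without 1 library, 0 to 6 rose and 0 to 1 fell: slc24a5 did not pass without each ZMEL1 replicate, oca2 without ZMELR1 replicates 1 and 2, and kita, tyrp1b and tfap2e passed only without ZMELR1 replicate 3, ZMEL1 replicate 2 and ZMEL1 replicate 3 (edgeR adjusted p up to 0.0552, 0.0793, 0.133, 0.107 and 0.169). Leukocytes carry high levels of Fos and Jun transcripts in many tissues, and the leukocyte markers summed to 13.6, 12.4 and 30.3 CPM in ZMELR1 replicates 1, 2 and 3, against 9.67, 9.99 and 8.25 CPM in ZMEL1. Of this sum csf1ra, which pigment cells also use, made up 25.8 CPM in ZMELR1 replicate 3. The pan-leukocyte gene ptprc was at 0.342 to 0.545 CPM in ZMELR1 and 0.272 to 0.486 CPM in ZMEL1. Both were picked from the 17 rows of this list. The part of leukocytes in the levels of the Fos, Jun and Egr genes was not tested. Of 6 leukocyte markers tested, 0 passed in edgeR (2 at an unadjusted p under 0.05, a share of 24.3% over all genes, and 0 with the block). Of the markers of other cell types, gata1a and fli1a among 4 endothelial and blood genes, myh11a among 9 fibroblast and muscle genes and krt4 among 8 epithelial genes fell, and 0 rose. With the block 0 endothelial and blood genes were higher and 2 lower. For fibroblast and muscle genes these numbers were 2 and 3, and for epithelial genes 1 and 3. All these counts are to be read against the shares of all genes given above. The call of gata1a held without each library, that of krt4 was lost without ZMELR1 replicate 1, that of fli1a without replicates 1 and 2 of both lines, and that of myh11a without every library but ZMELR1 replicate 2 (edgeR adjusted p up to 0.0511, 0.0758 and 0.106). The gene gata1a was near silent in ZMELR1, at 0.0171, 0.0110 and 0.0495 CPM, against 2.60, 3.02 and 0.572 CPM in ZMEL1 replicates 1, 2 and 3.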

How the data were processed

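RNA was sequenced from 3 libraries each of ZMELR1 and ZMEL1 cells. Raw counts per gene name, which the authors deposited, were made with HTSeq after alignment to Zv9, and whether the counting used strand is not given in the sources used here. Reads shared by gene copies such as junba and junbb could have been lost or split. From these counts, genes were filtered with filterByExpr (minimum count 10, total 15), scaled by TMM and tested with edgeR 4.0.16 (quasi-likelihood, R 4.3.3), with Benjamini-Hochberg adjustment over 16589 genes and a threshold of 0.05. log2 CPM used a prior count of 2. Gene names were lower-cased and copy endings removed to find members. The name fosab was not matched, and fos was linked to it through RefSeq. No genome was used, so no position or sequence is given.

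The members and gene lists were chosen with earlier results of these data known. All members with a row were named. From each other list the genes named were up to 4 in each direction with the smallest p among those past the threshold. For jun, junbb and egr1 they were the 3 genes of highest Pearson r. Other genes are marked as chosen after their values were seen, except egr2a, egr3, mitfa, csf1ra and ptprc. These were also named outside the rules above.

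The labels number the replicates 1 to 3 in both lines. Deviations from the line mean correlated at 0.557, 0.588 and 0.509 between libraries of numbers 1, 2 and 3, and at -0.50 to -0.03 between different numbers, so a fit with the number as a block was set beside the main one. Alternatives were RLE and library-size scaling, 2 other filters, DESeq2 1.42.0, limma-voom (limma 3.58.1), each library left out, and replicate 3 of both lines left out. The tests were also run on simulated counts. These were drawn with no outlying library and no link by replicate number, so they do not cover these features of the data. Total counts were 42591832 to 83741911.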

Additional observations from a re-analysis of the deposited data

How the results depend on the processing

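No member passed the threshold in any alternative except the block with replicate 3 of both lines left out (elsewhere adjusted p 0.133 to 0.990 in edgeR, limma-voom and DESeq2). Without 1 library in turn, the log2 fold change ran from -0.69 to 2.23 for egr1, -0.20 to 3.66 for the fos row, -1.06 to 1.14 for fosl1a, -0.66 to 2.16 for jun, -0.95 to 2.30 for junba and -0.63 to 1.64 for junbb, each lowest without ZMELR1 replicate 3. Without replicate 3 of both lines, fosl1a, jun, junba and junbb were at -0.65, -0.29, -0.67 and -0.27. With the replicate block as well, added after seeing the data, they were at -0.58, -0.28, -0.67 and -0.27, with 3 members and 8327 genes past the threshold. In limma-voom fosl1a was at -0.022. There jun, junba, junbb, egr1 and the fos row were at 0.59, 0.33, 0.51, 0.73 and 1.34, each below the main fit. The values of fosb, fosl2 and jund were 0.43, 0.37 and 0.65. With the replicate block on all 6 libraries, jun, junba, junbb, egr1 and the fos row were at 0.63, 0.42, 0.45, 0.71 and 1.59. In that fit fosl1a, fosb, fosl2 and jund were at 0.09, 0.43, 0.41 and 0.66. The cause of the reversals was not tested beyond the libraries left out. The count of changed genes was 1044 in edgeR, 4127 with the replicate block, 463 with at least 10 counts in every library, 2297 in DESeq2 and 2307 in DESeq2 without its filter on extreme counts, an alternative added after seeing the data. It was 306 to 1149 as each library was left out. In the fit on all 6 libraries the replicate block changed no call of a member. Of 480 counts of the gene lists under alternatives, 320 stayed within 1.5 times and 160 did not. Scaling moved the median of all genes by less than 0.1. With 3 libraries a line and 1 far from the others, the intervals of jun, junba, egr1 and the fos row spanned several log2 units.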
